A study of Mus musculus with 9 samples.

Results

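The enzymes and carriers that break down fatty acids in mitochondria and peroxisomes, and those that handle ketone bodies, were followed in mouse liver through 30 listed genes. Each gene had at least 1 probe set annotated with exactly that symbol, so all 30 of the 30 were measured, among 19938 genes in all. They comprised 18 genes of mitochondrial oxidation (Cpt1a, Cpt2, Slc25a20, Mlycd, Acadm, Acadl, Acadvl, Acads, Hadha, Hadhb, Hadh, Acaa2, Echs1, Eci1, Decr1, Etfa, Etfb and Etfdh), 10 of peroxisomal oxidation (Abcd3, Crot, Acox2, Ehhadh, Hsd17b4, Acaa1a, Acaa1b, Eci2, Decr2 and Pex11a) and 2 of ketone metabolism (Bdh1 and Aacs). Hadhb was the average of 2 probe sets and the other 29 genes had 1 probe set each. The list was made by pathway, with earlier results of these data known.

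The data were 9 arrays (Affymetrix Mouse Gene 1.0 ST) of liver RNA, 3 for each of 3 groups of male mice, which were 6 weeks old at the start. N-control mice were C57BL/6J wildtype animals given tap water, OB-control mice were ob/ob animals (B6.V-Lepob/J) given tap water, and OB-TUDCA mice were ob/ob animals given 500 mg/kg of tauroursodeoxycholic acid (TUDCA), a taurine-conjugated bile acid, 2 times a day. All groups were dosed by gavage for 3 weeks, ate normal chow and were killed after 8 h of fasting. The ob/ob mouse lacks functional leptin in the whole body, so the genotype is not specific to liver, and OB-control against N-control compares genotypes while OB-TUDCA against OB-control compares treatments within ob/ob. The study had 6 mice in each group, of which 3 were put on arrays.

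A fatty acid enters the mitochondrion as acylcarnitine and is then shortened by repeated rounds of dehydrogenation, hydration, a further dehydrogenation and thiolysis, each round releasing acetyl-CoA and passing electrons to the respiratory chain. Peroxisomes shorten very long, branched and dicarboxylic chains and the side chain of bile acid precursors, and pass the shortened products on to mitochondria. During fasting the liver turns much of the acetyl-CoA into ketone bodies, and the nuclear receptor PPARα, encoded by Ppara, is a known activator of many genes of all these steps.

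The signals were deposited on the log2 scale after RMA, and the arrays had medians of 4.5 to 4.58. Values are log2 signals or differences between them unless a fold is named, and a difference was called where limma gave a Benjamini-Hochberg adjusted p under 0.05 over all 19938 genes. The mean signal over the 9 arrays was above the median of all genes (4.95) for all 30 genes. It lay at percentiles of 79.5 (Mlycd) to 99.6 (Acaa2) among all genes. Shares, medians and spreads over all genes include genes of low signal and were not matched to the 30 genes for signal. The part of signal level in the gaps from them was not tested. Hepatocyte markers were high on every array, with a mean of 12.51 to 12.78 over 10 genes. For all 10 the OB-control mean was below that of N-control (median difference -0.23), whereas 57% of all genes had the higher mean in OB-control. Of the 10, 0 passed the test, against 0.948% of all genes. N-control replicate 2 stood apart in 25 genes of the exocrine pancreas, whose mean was 9.36 against 3.71 to 4.08 on the other 8 arrays, and 0 of the 30 genes were called with or without this array. For 10 of 12 macrophage markers (83.3%, against 53.6% of all genes) the OB-TUDCA mean was above that of OB-control (0 called). The mean of the 12 was 6.85 to 7.22 on the OB-control and 7.00 to 7.62 on the OB-TUDCA arrays. Of 8 endothelial markers, 6 had an unadjusted limma p under 0.05 in OB-TUDCA against OB-control (75%, against 12% of all genes). Of these, 3 were higher, 3 lower and 0 called. In OB-TUDCA against N-control 8 had such a p (100%, against 18.5% of all genes). Limma called 4 of them, where 3.24% of all genes were called. They were Lyve1, higher by 2.44, and Kdr, Oit3 and Fcgr2b, lower (-1.17, -0.65 and -0.81). The mean of the 8 was 7.16 to 7.44 over the 9 arrays. The part of these cell types in the differences between groups was not tested. In whole liver, fewer cells of a type and less RNA per cell cannot be told apart.

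Promoter sequence was read for 27 of the 30 genes from RefSeq (GRCm38.p6). Those not matched were Acaa2, Decr1 and Hsd17b4. In the 250 bases before the start site used for each gene, both strands were searched for the consensus PPAR response element. This direct repeat of AGGTCA with 1 base between (DR1) was found in 0 of 27 genes, against 0.0407% of all 27025 genes. With 2 letters left free it was found in 0 of 27, against 0.4%. Both shares are too low for a count of 0 in 27 genes to tell these genes from others. The half-site AGGTCA was present in 4 of 27 (Cpt1a, Acadm, Acadvl and Echs1, 14.8% against 15.8% of all genes). A CCAAT box (CCAAT) was present in 12 of 27 (44.4% against 37.5%) and a GC box (GGGCGG) in 15 of 27 (55.6% against 35.4%). The median GC content was 59.6% against 52.4%. Windows are printed for 4 genes to which the results return. The window of Cpt1a, the entry step, holds the half-site, a CCAAT box and 2 GC boxes, and Acads had the smallest limma adjusted p between the control groups. Pex11a and Aacs had the widest spread between arrays of the control groups. Their windows hold none of the motifs, and neither do those of Abcd3 and Bdh1. The SDs of Abcd3 and Bdh1 were 0.016 and 0.248 on the N-control arrays and 0.325 and 0.167 on those of OB-control. A relation between motifs and spread was not tested. The windows lie at chr19:3323051-3323300 on the plus strand for Cpt1a, chr5:115119347-115119596 on the minus strand for Acads, chr7:79743132-79743381 on the minus strand for Pex11a and chr5:125475623-125475872 on the plus strand for Aacs. The Cpt1a window lies inside the annotated gene (chr19:3322326-3385735), so it precedes a start site downstream of the annotated gene start. Those of Acads, Pex11a and Aacs border the annotated gene start. Each reads 5′ to 3′ in the direction of the gene, with half-sites, CCAAT boxes and GC boxes of either strand in capitals.
Cpt1a: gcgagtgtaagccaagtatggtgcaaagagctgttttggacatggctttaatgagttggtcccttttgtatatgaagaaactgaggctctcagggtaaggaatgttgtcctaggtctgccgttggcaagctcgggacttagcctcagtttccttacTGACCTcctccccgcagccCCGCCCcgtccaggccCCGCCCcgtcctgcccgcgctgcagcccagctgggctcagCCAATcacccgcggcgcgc
Acads: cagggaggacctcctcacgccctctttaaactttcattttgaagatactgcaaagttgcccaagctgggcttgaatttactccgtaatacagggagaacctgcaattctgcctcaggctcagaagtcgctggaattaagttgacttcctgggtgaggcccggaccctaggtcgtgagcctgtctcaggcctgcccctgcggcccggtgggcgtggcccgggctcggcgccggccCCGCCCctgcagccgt
Pex11a: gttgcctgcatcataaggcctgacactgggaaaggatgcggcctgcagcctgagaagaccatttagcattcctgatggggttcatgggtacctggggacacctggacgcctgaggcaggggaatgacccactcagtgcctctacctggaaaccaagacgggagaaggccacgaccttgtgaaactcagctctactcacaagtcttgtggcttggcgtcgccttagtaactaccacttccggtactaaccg
Aacs: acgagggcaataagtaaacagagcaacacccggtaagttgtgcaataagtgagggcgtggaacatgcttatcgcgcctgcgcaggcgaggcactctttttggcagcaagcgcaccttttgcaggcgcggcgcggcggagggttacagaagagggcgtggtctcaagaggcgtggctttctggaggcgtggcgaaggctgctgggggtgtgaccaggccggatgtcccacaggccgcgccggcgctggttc
A match is a description of the letters, not a binding site, and the absence of one says only that these letters are not in this window.

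Comparing the genotypes, the OB-control mean exceeded the N-control mean for 26 of the 30 genes, while 57% of all genes did. The median difference was 0.28 over the 30 genes and 0.02 over all genes. It was 0.18 for the mitochondrial and 0.35 for the peroxisomal genes, and the 2 ketone genes differed by 0.45 and 0.28. None of the single differences passed the test: limma called 0 of 30 genes, where 0.948% of all genes were called. At an unadjusted p under 0.05 there were 9 genes, all higher in OB-control (Slc25a20, Acadm, Acads, Hadh, Eci1, Acox2, Ehhadh, Hsd17b4 and Bdh1), which is 30% of the genes against 12.1% of all genes (6.55% higher and 5.59% lower). The arrays of both groups did not overlap for 6 of 30 genes (20%, against 15.3% of all genes, 8.49% higher and 6.77% lower). These were Acadm, Acads, Hadh, Echs1 and Bdh1, higher in OB-control, and Etfa, lower. The median difference over the 30 genes was 0.18 without OB-control replicate 3 and between 0.20 and 0.36 when any other array of these groups was left out. Without OB-control replicate 3 the mitochondrial median was 0.16 and the peroxisomal 0.22. The labels describe the 3 arrays a group as biological replicates. The limma p-values weigh a difference in means against the spread between arrays. That spread was pooled over all 3 groups, OB-TUDCA included, and combined with a prior from all genes.

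**Figure D1:**
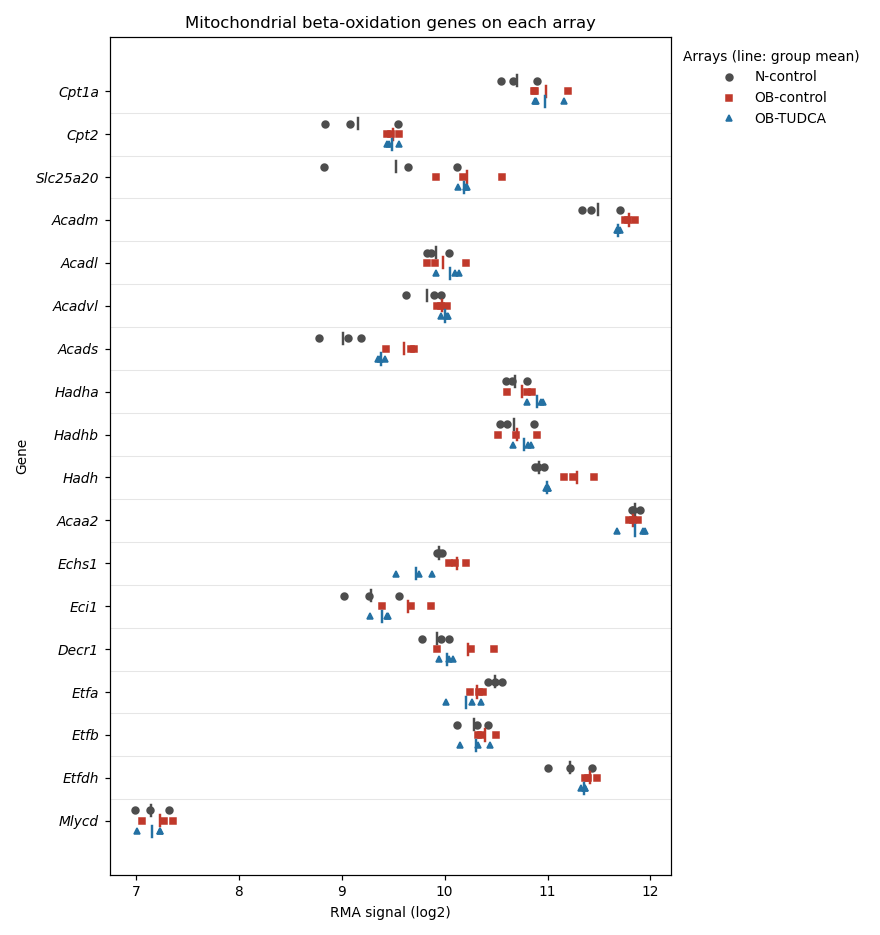
Log2 signal of the 18 mitochondrial genes (rows) by group, with points for the 9 arrays and short lines for group means. The OB-control arrays of Acads (9.43 to 9.70) lie above the N-control arrays (8.78 to 9.19), while those of Hadhb, Acaa2 and Mlycd overlap.

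Of the genes that bring fatty acids into the mitochondrion, Cpt1a encodes the liver carnitine palmitoyltransferase of the outer membrane, the regulated step of entry. Its log2 signal was 10.55, 10.66 and 10.90 on the N-control arrays, 10.88, 10.87 and 11.20 on those of OB-control and 10.89, 10.88 and 11.16 on those of OB-TUDCA. The N-control and OB-control arrays overlapped by a narrow margin, and both ob/ob groups covered the same range. OB-control exceeded N-control by 0.28 (SE 0.13, 1.21-fold, limma adjusted p = 0.434), and by 0.17 with OB-control replicate 3 left out. The difference between OB-TUDCA and OB-control was -0.01, with a 95% interval of -0.30 to 0.28. Slc25a20, the carnitine-acylcarnitine carrier of the inner membrane, had the largest mitochondrial difference, with 8.83, 9.64 and 10.12 on the N-control arrays, 10.18, 9.92 and 10.56 on those of OB-control and 10.13, 10.22 and 10.21 on those of OB-TUDCA. N-control replicate 1 was by far the lowest array, and OB-control replicate 2 lay below the highest N-control array. The OB-control mean was higher by 0.69 (SE 0.28, 1.62-fold, limma adjusted p = 0.364), and OB-TUDCA exceeded N-control by 0.66 with arrays that did not overlap (limma adjusted p = 0.256). With N-control replicate 1 left out, these differences were 0.34 and 0.31. Cpt2, which returns the acyl group to CoA inside the mitochondrion, was at 8.84, 9.08 and 9.55 in N-control mice, whereas the 6 ob/ob arrays lay within 9.44 to 9.56. The highest N-control array was within the range of the ob/ob arrays. Without N-control replicate 3, Cpt2 was called for OB-TUDCA against N-control (difference 0.53, limma adjusted p = 0.0349, with 0.0349 to 0.630 over the alternatives), against 0.33 and an adjusted p of 0.285 with all arrays and a difference of 0.18 with N-control replicate 1 left out. Mlycd, the malonyl-CoA decarboxylase that removes the inhibitor of Cpt1a, ranged from 6.99 to 7.36 over the 9 arrays and its groups overlapped in all 3 comparisons.

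Among the acyl-CoA dehydrogenases, which start each round and differ in the chain length they take, the short-chain enzyme Acads came closest to the threshold. It read 8.78, 9.06 and 9.19 on the N-control arrays, 9.67, 9.43 and 9.70 on those of OB-control and 9.37, 9.35 and 9.42 on those of OB-TUDCA. The 3 groups did not overlap, and OB-TUDCA lay between the others, its highest array (9.42) just below the lowest of OB-control (9.43). OB-control exceeded N-control by 0.59 (SE 0.12, 95% interval 0.33 to 0.85, 1.5-fold) with a limma adjusted p of 0.0548. This p was 0.0470 with N-control replicate 3 left out and 0.0372 with OB-control replicate 2 left out, and it ranged from 0.0212 to 0.204 over all alternatives. OB-TUDCA differed from OB-control by -0.22 (SE 0.12, limma adjusted p = 0.496). Acadm, the medium-chain enzyme, read 11.34, 11.42 and 11.70 on the N-control arrays, 11.78, 11.75 and 11.85 on those of OB-control and 11.68, 11.69 and 11.70 on those of OB-TUDCA. Its OB-control arrays were above all other arrays, by 0.31 in the mean against N-control (SE 0.10, limma adjusted p = 0.212). Acadl and Acadvl, for long and very long chains, overlapped between groups in every comparison, with OB-control means 0.07 and 0.14 above those of N-control.

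The middle and last steps of the round are carried out by Echs1, an enoyl-CoA hydratase for short chains, by Hadh, the dehydrogenase for short hydroxyacyl chains, by the trifunctional protein for long chains, whose subunits are encoded by the neighbouring genes Hadha and Hadhb, and by the thiolase Acaa2. Hadh read 10.88, 10.91 and 10.97 on the N-control arrays, 11.25, 11.16 and 11.45 on those of OB-control and 10.99, 11.00 and 11.00 on those of OB-TUDCA. The OB-control arrays stood above the other 6, which spanned 10.88 to 11.00. The difference from N-control was 0.37 (SE 0.08, 1.29-fold, limma adjusted p = 0.0998) and that of OB-TUDCA from OB-control was -0.29 (95% interval -0.48 to -0.10, limma adjusted p = 0.186). Echs1 read 9.97, 9.94 and 9.93 on the N-control arrays, 10.10, 10.21 and 10.04 on those of OB-control and 9.75, 9.88 and 9.53 on those of OB-TUDCA. No arrays of different groups overlapped, with OB-control highest and OB-TUDCA lowest. The difference of OB-TUDCA from OB-control was -0.40 (SE 0.10, 1.32-fold lower, limma adjusted p = 0.12), the smallest adjusted p of that comparison among the 30 genes, and the difference from N-control was -0.22 (limma adjusted p = 0.253), or -0.13 with OB-TUDCA replicate 3 left out. Hadha, Hadhb and Acaa2 overlapped in OB-control against N-control, with differences of 0.07, 0.03 and -0.01. Hadha had its highest arrays in OB-TUDCA mice (10.80, 10.96 and 10.94, against 10.80, 10.61 and 10.85 in OB-control), a difference of 0.15 with an interval of -0.06 to 0.36. Both probe sets of Hadhb gave the same order of arrays in N-control mice, 10.59, 10.69 and 10.89 for the first and 10.49, 10.54 and 10.84 for the second.

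Unsaturated chains need the isomerase Eci1 and the reductase Decr1, and electrons from the dehydrogenases reach the respiratory chain through the flavoprotein subunits Etfa and Etfb and their oxidoreductase Etfdh. Eci1 was at 9.02, 9.26 and 9.56 on the N-control arrays, 9.67, 9.39 and 9.87 on those of OB-control and 9.45, 9.27 and 9.44 on those of OB-TUDCA. The groups overlapped, and the OB-control mean was 0.36 above N-control (SE 0.16, limma adjusted p = 0.389). Decr1 differed by 0.30 between the same groups (SE 0.13, limma adjusted p = 0.416). The difference was 0.23 for Eci1 with N-control replicate 1 left out and 0.17 for Decr1 with OB-control replicate 3 left out. Etfa was unlike most of the genes in having its highest arrays in N-control mice, at 10.56, 10.42 and 10.49, against 10.25, 10.37 and 10.33 for OB-control arrays and 10.35, 10.27 and 10.01 for OB-TUDCA arrays. N-control did not overlap with either ob/ob group, with differences of -0.17 for OB-control (limma adjusted p = 0.531) and -0.28 for OB-TUDCA (SE 0.10, limma adjusted p = 0.163), the latter -0.18 with OB-TUDCA replicate 3 left out. Etfb and Etfdh overlapped in all comparisons.

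**Figure D2:**
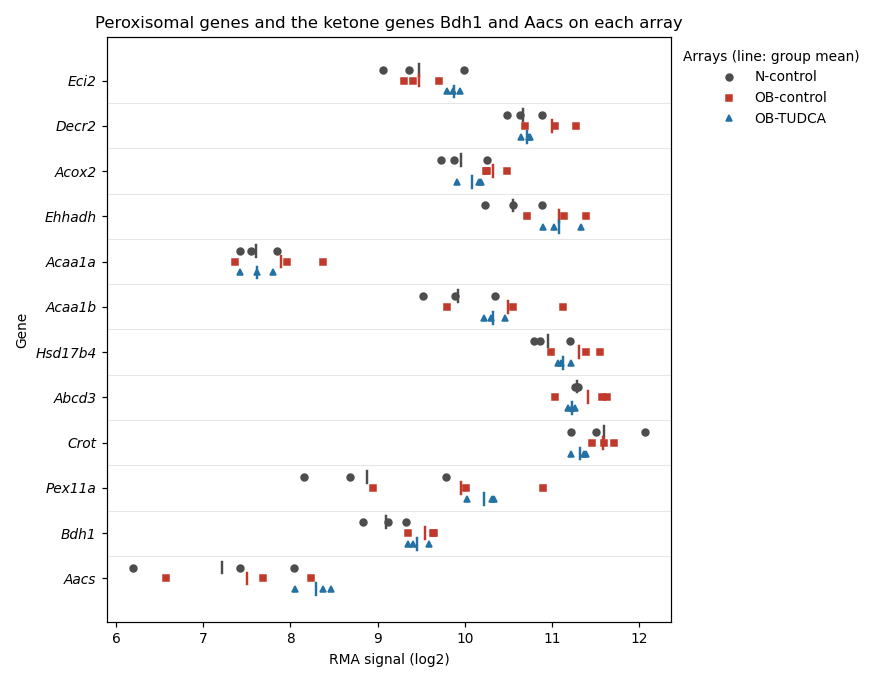
Log2 signal of the 10 peroxisomal and 2 ketone genes (rows) by group, with points for the 9 arrays and short lines for group means. Pex11a spans 8.15 to 9.79 in N-control and 8.95 to 10.90 in OB-control mice but 10.03 to 10.34 in OB-TUDCA mice, and Aacs likewise has its narrowest spread in OB-TUDCA mice (8.05 to 8.46).

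Peroxisomal oxidation begins with import of the chain, for which Abcd3 encodes a membrane transporter. Crot encodes the carnitine octanoyltransferase that serves the export of shortened products. Abcd3 was nearly constant in N-control mice (11.30, 11.27 and 11.29) and varied in OB-control mice (11.63, 11.04 and 11.57), with a difference of 0.12 between the means (SE 0.14, limma adjusted p = 0.784). Crot was at 11.22, 11.51 and 12.07 on the N-control arrays, 11.46, 11.71 and 11.60 on those of OB-control and 11.22, 11.39 and 11.37 on those of OB-TUDCA. The OB-TUDCA arrays were below all OB-control arrays, by -0.26 in the mean (SE 0.18, limma adjusted p = 0.631), while N-control spanned both groups. The oxidase Acox2, which acts on branched chains and bile acid intermediates, read 9.73, 9.88 and 10.25 on the N-control arrays, 10.24, 10.48 and 10.26 on those of OB-control and 10.19, 9.91 and 10.16 on those of OB-TUDCA. OB-control exceeded N-control by 0.38 (SE 0.14, 1.30-fold, limma adjusted p = 0.310), and OB-TUDCA differed from OB-control by -0.24 with arrays that did not overlap (limma adjusted p = 0.546), or by -0.16 with OB-TUDCA replicate 2 left out.

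Ehhadh and Hsd17b4 encode the L- and D-bifunctional proteins, which carry out the next steps of the peroxisomal round. Ehhadh was at 10.23, 10.55 and 10.89 on the N-control arrays, 11.14, 10.72 and 11.39 on those of OB-control and 10.90, 11.02 and 11.33 on those of OB-TUDCA. Both ob/ob means were higher than N-control by 0.53 (SE 0.21, 1.44-fold, limma adjusted p = 0.342 for OB-control and 0.215 for OB-TUDCA), and the arrays of OB-TUDCA did not overlap with N-control. The difference between the ob/ob groups was 0.00, with a 95% interval of -0.47 to 0.46. Hsd17b4 differed by 0.36 between OB-control and N-control mice (SE 0.15, limma adjusted p = 0.395), or by 0.24 with OB-control replicate 3 left out. The thiolases Acaa1a and Acaa1b are near-identical copies, so that cross-hybridization between their probes, which was not tested, makes the separate values uncertain. Acaa1b was at 9.52, 9.89 and 10.35 on the N-control arrays, 10.55, 9.80 and 11.13 on those of OB-control and 10.30, 10.22 and 10.46 on those of OB-TUDCA. OB-control had the widest range and overlapped with both other groups, and the difference of 0.57 from N-control had a 95% interval of -0.12 to 1.27. It was 0.37 with N-control replicate 1 left out, 0.25 with OB-control replicate 3 left out and 0.92 with OB-control replicate 2 left out. Acaa1a had its lowest and its highest array in the same OB-control replicates as Acaa1b, at 7.36 and 8.37.

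The auxiliary enzymes Eci2 and Decr2, an isomerase and a reductase for unsaturated chains, went separate ways. Eci2 was at 9.06, 9.36 and 9.99 on the N-control arrays, 9.41, 9.30 and 9.70 on those of OB-control and 9.87, 9.95 and 9.80 on those of OB-TUDCA. It was the only one of the 30 genes whose OB-TUDCA arrays lay wholly above OB-control, with a difference of 0.40 (SE 0.21, limma adjusted p = 0.492). Decr2 had a mean of 10.67 ± 0.201 (SD, n = 3) on the N-control arrays, 11.00 ± 0.294 on those of OB-control and 10.71 ± 0.058 on those of OB-TUDCA, and the arrays of OB-control overlapped with both. Pex11a, a membrane protein of peroxisome division and proliferation, varied most of the peroxisomal genes. It was at 8.15, 8.68 and 9.79 on the N-control arrays, 10.02, 8.95 and 10.90 on those of OB-control and 10.03, 10.31 and 10.34 on those of OB-TUDCA. The OB-TUDCA arrays were above every N-control array and within the OB-control range. OB-control exceeded N-control by 1.08 (SE 0.49, 2.11-fold, limma adjusted p = 0.421) and OB-TUDCA exceeded N-control by 1.35 (95% interval 0.24 to 2.46, 2.54-fold, limma adjusted p = 0.188). The difference of OB-control from N-control was 0.61 with OB-control replicate 3 left out and 0.72 with N-control replicate 1 left out.

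Of the ketone genes, Bdh1 encodes the mitochondrial dehydrogenase that interconverts acetoacetate and 3-hydroxybutyrate. It was at 8.83, 9.12 and 9.33 on the N-control arrays, 9.65, 9.35 and 9.64 on those of OB-control and 9.41, 9.35 and 9.59 on those of OB-TUDCA. Neither ob/ob group overlapped with N-control, but by a narrow margin, with 9.35 as the lowest array of each against 9.33. The difference was 0.45 for OB-control (SE 0.14, 1.37-fold, limma adjusted p = 0.202) and 0.36 for OB-TUDCA (SE 0.14, 1.28-fold, limma adjusted p = 0.202), the latter 0.23 with N-control replicate 1 left out. Aacs, a cytosolic synthetase that activates acetoacetate for the synthesis of lipids, was at 8.04, 7.42 and 6.19 on the N-control arrays, 8.24, 6.57 and 7.69 on those of OB-control and 8.46, 8.37 and 8.05 on those of OB-TUDCA. The N-control and OB-control arrays were scattered over the same range, and the OB-TUDCA arrays lay above all those of N-control. OB-TUDCA exceeded OB-control by 0.79 (SE 0.49, 1.73-fold, 95% interval -0.31 to 1.90, limma adjusted p = 0.575) and N-control by 1.08 (2.11-fold, limma adjusted p = 0.284). These were 0.33 with OB-control replicate 2 left out and 0.56 with N-control replicate 3 left out. The difference of 0.28 between OB-control and N-control turned to -0.23 with N-control replicate 3 left out and to -0.09 with OB-control replicate 1 left out.

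**Figure D3:**
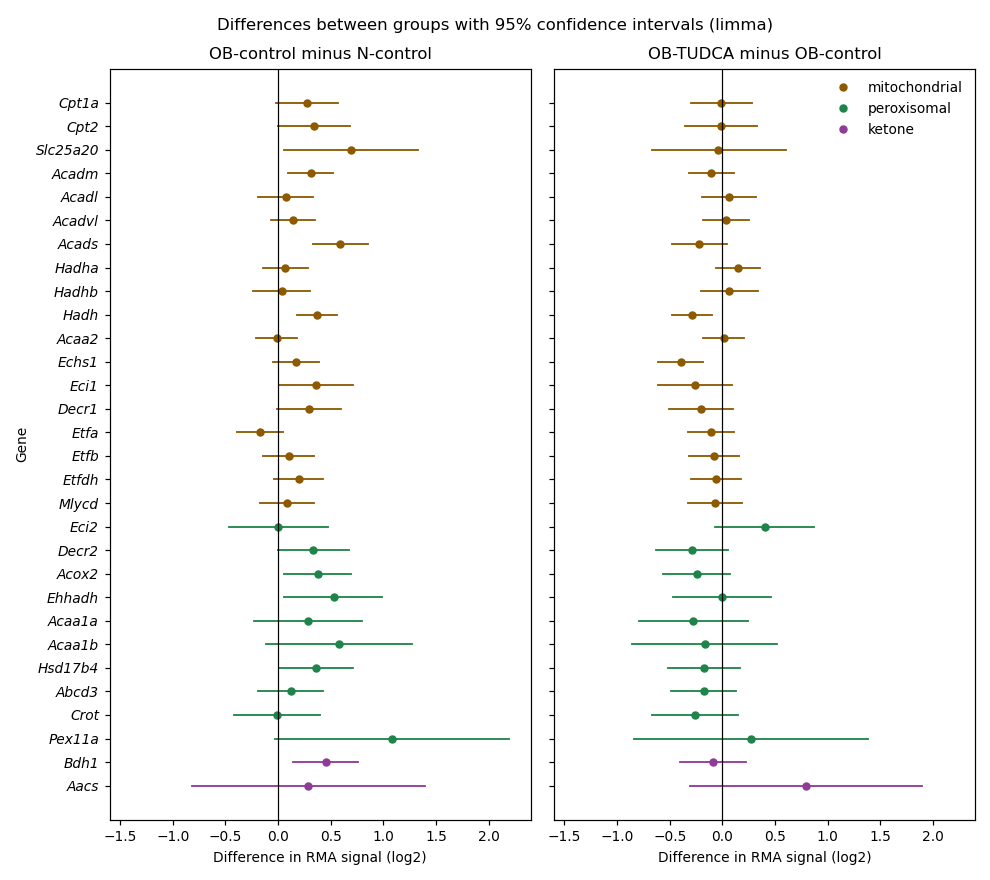
Log2 difference of each of the 30 genes (rows, ordered and coloured by step), OB-control minus N-control on the left and OB-TUDCA minus OB-control on the right, with 95% intervals from limma. The OB-control against N-control differences lie above 0 for 26 of 30 genes and those of OB-TUDCA against OB-control below 0 for 22 of 30, and 0 of the 30 were called in either.

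Comparing the treatments within ob/ob, the lower mean was in OB-TUDCA for 22 of the 30 genes, 13 of the 18 mitochondrial and 8 of the 10 peroxisomal genes and Bdh1. The higher mean was in OB-TUDCA for 26.7% of the genes, against 53.6% of all genes. The median difference was -0.09 over the 30 genes, -0.06 over the mitochondrial and -0.18 over the peroxisomal genes, against 0.01 over all genes. Limma called 0 of 30 genes, where 0.301% of all genes were called. At an unadjusted p under 0.05 there were 2 lower genes, Hadh and Echs1, which is 6.67% against 12% of all genes (6.26% higher and 5.72% lower). The arrays did not overlap for 7 genes (23.3% against 13.8% of all genes, 7.26% higher and 6.53% lower). Acadm, Acads, Hadh, Echs1, Acox2 and Crot were lower and Eci2 was higher in OB-TUDCA. Acadm, Acads, Hadh and Echs1 were also apart between OB-control and N-control, but both comparisons share the OB-control arrays, so their opposite signs are not independent. The median over the 30 genes was -0.17 with OB-control replicate 2 left out, -0.05 with OB-control replicate 3 left out and between -0.11 and -0.09 without any other array of these groups. With OB-control replicate 3 left out, the mitochondrial and peroxisomal medians were -0.04 and -0.05, and with OB-control replicate 2 left out they were -0.07 and -0.29.

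Between OB-TUDCA and N-control mice, a comparison that shares its arrays with the other 2, 26 of 30 genes had the higher mean in OB-TUDCA. The median difference was 0.14 over the 30 genes, 0.12 over the mitochondrial and 0.16 over the peroxisomal genes, against 0.04 over all genes. Limma called 0 of 30 genes, where 3.24% of all genes were called. Unadjusted p-values under 0.05 were given for 6 higher genes (Slc25a20, Acads, Hadha, Ehhadh, Pex11a and Bdh1) and 2 lower genes (Echs1 and Etfa), which is 26.7% against 18.5% of all genes (10.4% higher and 8.15% lower). The arrays did not overlap for 9 genes, 30% against 20.7% of all genes (11.8% higher and 8.95% lower). These were Slc25a20, Acads, Hadh, Ehhadh, Pex11a, Bdh1 and Aacs, higher in OB-TUDCA, and Echs1 and Etfa, lower. Between the lowest OB-TUDCA and the highest N-control array the margin was narrow for several of the higher genes. It was 10.13 against 10.12 for Slc25a20, 10.99 against 10.97 for Hadh and 10.90 against 10.89 for Ehhadh. For Bdh1 it was 9.35 against 9.33 and for Aacs 8.05 against 8.04. The median was 0.06 with N-control replicate 1 left out, 0.24 with N-control replicate 3 left out and 0.12 to 0.17 without any other array of these groups.

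**Figure D4:**
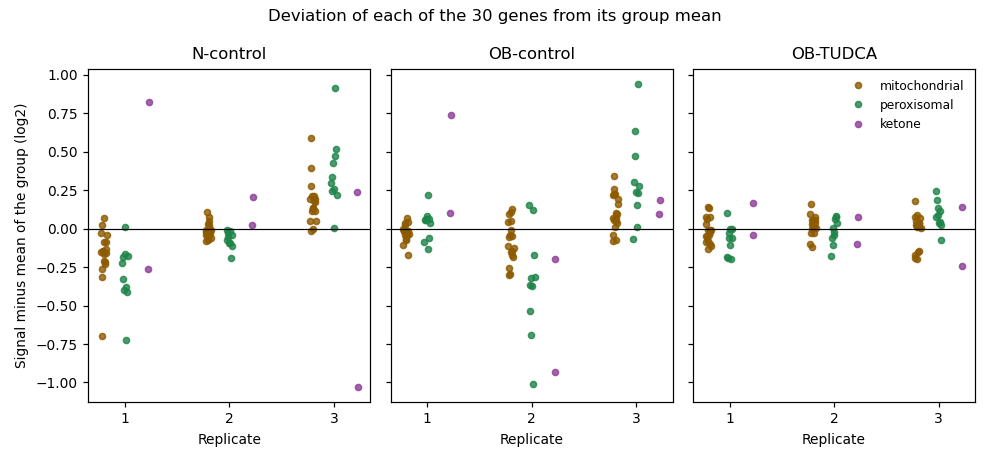
Log2 signal of each of the 30 genes minus its mean in the group, by replicate and group, with 1 point per gene coloured by step and a line at 0. In N-control mice 26 of 30 genes have replicate 1 lowest and replicate 3 highest, and in OB-control mice 19 of 30 have replicate 2 lowest and replicate 3 highest.

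The genes varied together between arrays of a group, a pattern that was chosen after the values had been seen and is given as a description. In N-control mice, replicate 1 was the lowest and replicate 3 the highest array for 26 of the 30 genes (86.7%), against 17.3% of all genes. The exceptions were Echs1, Etfa, Abcd3 and Aacs, and Aacs had the opposite order, from 8.04 in replicate 1 to 6.19 in replicate 3. The order was not particular to the 30 genes. Among the further pathway genes described below it held for 34.8% of mitochondrial genes, 63.3% of peroxisomal genes, 50% of ketone genes and 50% of regulators. N-control replicate 2, the array with signals of pancreatic genes, was the lowest for 2 of the 30 genes and the highest for 0. In OB-control mice, replicate 2 was the lowest and replicate 3 the highest array for 19 of 30 genes (63.3%, against 14.7% of all genes). Among the further genes this order held for 43.5% of mitochondrial genes, 46.7% of peroxisomal genes, 25% of ketone genes and 14.3% of regulators. In OB-TUDCA mice the most frequent order, replicate 1 lowest and replicate 3 highest, held for 9 of 30 genes (30% against 15.5%). It held for 17.4%, 10%, 25% and 28.6% of the further mitochondrial, peroxisomal and ketone genes and regulators. The median SD over the 30 genes was 0.205 among N-control arrays, 0.176 among those of OB-control and 0.099 among those of OB-TUDCA, against 0.106, 0.117 and 0.122 over all genes. These genes share arrays, so their agreement is not replication. The orders and spreads over all genes were not matched to the 30 genes for signal.

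Further genes of the same steps were taken from 4 lists made by pathway. Of 26 further mitochondrial genes 23 were measured, of 35 peroxisomal genes 30, of 11 ketone genes 8 and of 14 regulators 14. Between OB-control and N-control mice, limma called 1, 3, 1 and 0 of them, where 0.948% of all genes were called. The genes called from these lists were all higher in OB-control. They were Acad10, a member of the acyl-CoA dehydrogenase family (difference 0.56, SE 0.08, adjusted p = 0.0183), Abcd2, a peroxisomal transporter of very long chains (1.42, adjusted p = 0.0330), the peroxisomal acyl-CoA thioesterases Acot3 (1.61, adjusted p = 0.0391) and Acot4 (1.48, adjusted p = 0.0107), and Slc16a7, a carrier of monocarboxylates (0.70, adjusted p = 0.0269). Acot3 and Acot4 lie close together on chromosome 12, and cross-hybridization between their probes was not tested. Their calls, here and below, are therefore not sure to be separate. All 5 genes missed the threshold when N-control replicate 2 or OB-control replicate 1 was left out. Of the 5, 4 (not Acot4) missed it when N-control replicate 1 or OB-control replicate 3 was left out. Acot3 and Slc16a7 missed it without OB-control replicate 2, and Abcd2 and Acot3 without any 1 of the OB-TUDCA arrays, as did Slc16a7 without OB-TUDCA replicate 2. The limma adjusted p of these lost calls was between 0.0518 and 0.172. All 5 were lost with the mean of the pancreatic genes as a covariate (limma adjusted p of 0.0504 to 0.128). That mean was 9.36 on N-control replicate 2 and 3.71 to 4.08 on the other arrays. The covariate therefore comes close to leaving out N-control replicate 2 and is not a separate check. All 5 were also lost with the arrays of the 2 groups alone (0.0628 to 0.126).

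Between OB-TUDCA and OB-control mice limma called Acad10 alone of these 75 genes, where 0.301% of all genes were called. Acad10 was lower by -0.55 (limma adjusted p = 0.0402). This call was lost in 7 of the 9 fits that left out an array, with a limma adjusted p of 0.0615 to 0.148. Only the fits without N-control replicate 3 or OB-TUDCA replicate 1 kept the call. It was also lost with the pancreatic covariate (0.0798, the same as without N-control replicate 2) and with the arrays of the 2 groups alone (0.125). Of the 30 further peroxisomal genes, 28 had an OB-TUDCA mean below that of OB-control and 0 were called. The higher mean was in OB-TUDCA for 6.67% of these peroxisomal genes, against 53.6% of all genes. Between OB-TUDCA and N-control mice, limma called 10 of the 75 genes, where 3.24% of all genes were called. Lower in OB-TUDCA were Acadsb, a dehydrogenase of short branched chains (-0.76, adjusted p = 0.0308), Phyh, which starts the alpha-oxidation of phytanic acid (-0.50, adjusted p = 0.0156), Nudt7, a peroxisomal hydrolase of CoA (-1.91, adjusted p = 0.0112), and Slc25a17, a peroxisomal carrier of cofactors (-0.58, adjusted p = 0.0211). Higher were Ech1, an isomerase for dienoyl-CoA (0.48, adjusted p = 0.0277), Abcd2 (1.33, adjusted p = 0.0203), Acot3 (1.44, adjusted p = 0.0290), Acot4 (1.34, adjusted p = 0.00961), Slc16a7 (0.85, adjusted p = 0.0068) and Hnf4a, a hepatocyte transcription factor (0.58, adjusted p = 0.0451). Slc16a7 kept its call in every alternative, Acot4 lost it only without OB-TUDCA replicate 2 and Nudt7 only without N-control replicate 2, both with an adjusted p of 0.0508. The other 7 were lost without at least 2 different single arrays, with N-control replicate 2 and OB-TUDCA replicate 2 each ending all 7, at an adjusted p of up to 0.157. Of the same 7, 6 were also lost when N-control replicate 1 was left out, 4 for OB-TUDCA replicate 3, 3 for OB-control replicate 1, 2 each for N-control replicate 3 and OB-TUDCA replicate 1 and 1 (Hnf4a) for OB-control replicate 3. The pancreatic covariate, which mostly follows N-control replicate 2, ended all 7 (limma adjusted p of 0.0516 to 0.119). The arrays of the 2 groups alone ended 4 (Acadsb, Ech1, Acot3 and Hnf4a, 0.071 to 0.0939). Subtraction of array medians ended Hnf4a (0.0773). Ppara itself differed by 0.16, 0.21 and 0.38 in OB-control against N-control, OB-TUDCA against OB-control and OB-TUDCA against N-control mice, with limma adjusted p of 0.583, 0.457 and 0.0908. Ppargc1a, a coactivator of mitochondrial genes, differed by 0.19, -0.63 and -0.44, with limma adjusted p of 0.761, 0.224 and 0.272.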

How the data were processed

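Liver RNA of 9 mice was hybridized to arrays (Affymetrix Mouse Gene 1.0 ST), 3 for each of the groups N-control, OB-control and OB-TUDCA, as the labels give them. The authors summarized each probe set to a log2 signal with the RMA method of Affymetrix Expression Console (version not given in the sources used here), and these deposited log2 values were used as they are. RMA corrects background and normalizes between arrays by quantiles, which reduces shifts common to all genes. The deposited array medians still ranged from 4.5 to 4.58. Arrays have no read depth, and their number limits the precision: an exact permutation test of 3 against 3 cannot give a p below 0.1.

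Of 35556 probe sets, 21789 were annotated with 1 gene symbol, 1621 had several, and the other 12146 stay unnamed here. Those with 1 symbol were averaged per symbol, with no filter on signal, and 19938 genes were tested two-sided with limma 3.58.1 in R 4.3.3, with Benjamini-Hochberg adjustment. The model held a mean for each of the 3 groups over all 9 arrays and had 6 degrees of freedom from the arrays and 3.33 from the prior. The fit was tested on simulated data. Figures came from matplotlib 3.10.9 under Python 3.11.15.

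The genes named are the 30 members, the further pathway genes past the threshold (at most 6 a list and comparison, by size), and Ppara and Ppargc1a. Some genes of the pathway lists are not reported here. Members, lists and tests were chosen with earlier results of these data known. Alternatives were another filter, normalization, centring, variance prior, weights, choice of arrays and probe set summary, a replicate block, the pancreatic mean as a covariate, the fold limits of the study's parameter search and each array left out in turn.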

Additional observations from a re-analysis of the deposited data

How the results depend on the processing

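Of the 30 genes, 0 were called between OB-TUDCA and OB-control mice in every alternative, and the counts of the other comparisons moved as follows. Between OB-control and N-control mice, 1 gene was called with the third of genes of lowest signal left out (Acads, limma adjusted p = 0.0414), 2 after quantile normalization once more and 2 with array weights (Acads and Hadh both times), and 0 to 1 when single arrays were left out. Between OB-TUDCA and N-control mice, 1 gene (Pex11a) passed the fold limits with the highest overlap in the study's parameter search, at least 1.5-fold lower or 2.3-fold higher with no test, and 0 to 1 were called when single arrays were left out. The cause was not tested. These counts are given without the share of all genes under the same setting, so they do not tell the 30 genes from others. With the replicate number as a block, 0 of the 30 genes were called in each comparison, and over all genes 189, 60 and 871 were, of which 139, 33 and 588 were also called without it. Of the further pathway genes, the block ended the calls of Acot3 in OB-control against N-control (0.0757), Acad10 in OB-TUDCA against OB-control (0.0527), and Acot3 and Hnf4a in OB-TUDCA against N-control (0.0523 to 0.0556). The numbers were not taken to pair the arrays, since not every pair of arrays with the same number had deviations that correlated over 0.1 (-0.075 to 0.209). That 6 of 9 arrays correlated best with their own number is a hint of pairing from the data, not from the design. No call of a member changed direction, and of 1623 values of single genes under the alternatives 58 had another sign, all without a call. Over all genes, calls numbered 189 between OB-control and N-control mice (60 to 358 over the alternatives), 60 between OB-TUDCA and OB-control (0 to 135) and 646 between OB-TUDCA and N-control (193 to 871). The median difference over the 30 genes was 0.08 between OB-TUDCA and N-control mice with each array's median subtracted and 0.21 after quantile normalization once more.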
